A study of Mus musculus with 4 samples.

Results

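The enzymes and carriers that take glucose to lactate or through the citric acid cycle were examined in melanotropes and corticotropes, which both make the hormone precursor pro-opiomelanocortin in the pituitary. A list of 43 gene symbols was matched to the symbols of the deposited table, which found 42 genes with 70 transcripts among 24063 genes and 33072 transcripts. The symbol Pc, for pyruvate carboxylase, matched no row, because the table lists that gene as Pcx with Pc as an alias, and Pcx is described separately. Melanotropes came from the dissected intermediate lobe and corticotropes from the anterior lobe of C57B6 mice that carry EGFP driven by POMC. Cells were sorted by GFP fluorescence, and every library was made from total RNA after ribosomal depletion. There were 2 melanotrope and 2 corticotrope libraries, no treatment, and no age or sex given in the sources used here. Whether replicate libraries stem from different animals is not stated in those sources, and the p-values measure a spread that may be technical. The gate follows the POMC reporter and not a marker of either cell type, so the lobe of origin is what separates the groups.

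Glycolysis splits glucose into pyruvate in the cytosol, and each step is run by a family of isoenzymes with different tissue use. Pyruvate is either reduced to lactate, which leaves the cell on monocarboxylate transporters, or enters the mitochondrion, where pyruvate dehydrogenase feeds acetyl groups into the citric acid cycle. Endocrine cells differ in this choice: Ldha and Slc16a1, for lactate dehydrogenase A and a lactate and pyruvate transporter, are known for being held very low in pancreatic beta cells. Levels are FPKM, read counts scaled for transcript length and library total, so that levels of different genes can be set side by side. They were rescaled between libraries because Pomc alone took 49.7% and 50.9% of the summed deposited FPKM in melanotropes, and 27.8% and 27.2% in corticotropes, which lowers every other value. Fold changes are melanotrope over corticotrope on log2(FPKM + 1), a scale that understates changes of low genes.

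The markers went with the labels. All 5 melanotrope markers (Pax7, Pcsk2, Drd2, Gulo and Oacyl) were higher in melanotropes and all 3 corticotrope markers (Crhr1, Avpr1b and Nr3c1) lower. Other cells were also represented unequally. The summed level of 12 markers of other anterior lobe lineages, led by Gh and Prl, was 14.4 and 63.6 FPKM in melanotropes and 5809 and 5660 FPKM in corticotropes, with all 12 lower in melanotropes. The sum of 10 posterior lobe and glial markers was 45.3 and 50.8 FPKM in melanotropes and 19.5 and 23.3 FPKM in corticotropes, with 4 of 5 tested higher (Slc1a3, Rax, Mbp and Sox2), while Gfap, S100b, Sox10, Aqp4 and Aldh1l1 were too low to be tested. Immune markers summed to 9.64 and 12.0 FPKM in melanotropes and 3.31 and 4.45 FPKM in corticotropes, and red cell markers to 3.62 and 5.26 FPKM in melanotropes and 26.0 and 32.4 FPKM in corticotropes. Vascular markers stayed at 2.65 to 3.18 FPKM in melanotropes and 4.42 to 6.08 FPKM in corticotropes. The part of these cells in the results below was not tested. In sorted bulk RNA, fewer cells of a type and less RNA per cell cannot be told apart. Low values were spaced in steps of 1 read, which implied at least 527 reads behind every member in every library.

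All 42 members passed the expression filter, Hk2 and Pfkfb3 only through their corticotrope libraries. Of the 42, 9 rose and 6 fell in melanotropes (limma, adjusted p under 0.05 over 13043 genes). That is 35.7% of the members, beside 36.2% of all genes tested, a share near the background. By direction, 21.4% of members rose against 18.7% of all genes, and 14.3% fell against 17.5%. The 2 cell types did not overlap in 30 of 42 members, or 71.4%, against 70.4% of all genes; 20 lay above, against 36% of all genes, and 10 below, against 34.4%. The median log2 fold change of the members was 0.08, and that of all genes was 0.01. Only Hk2 reached a log2 fold change of 1 in either direction (2.38% of members), a size seen in 8.89% of all genes. The counts depended on single libraries: without melanotrope replicate 2, 5 members rose and 5 fell. Without rescaling, where the median of all genes lies at -0.42, 2 members rose and 28 fell. The 2 that still rose were Ldha and Slc16a1, and all changes are reported relative to that median.

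**Figure D1:**
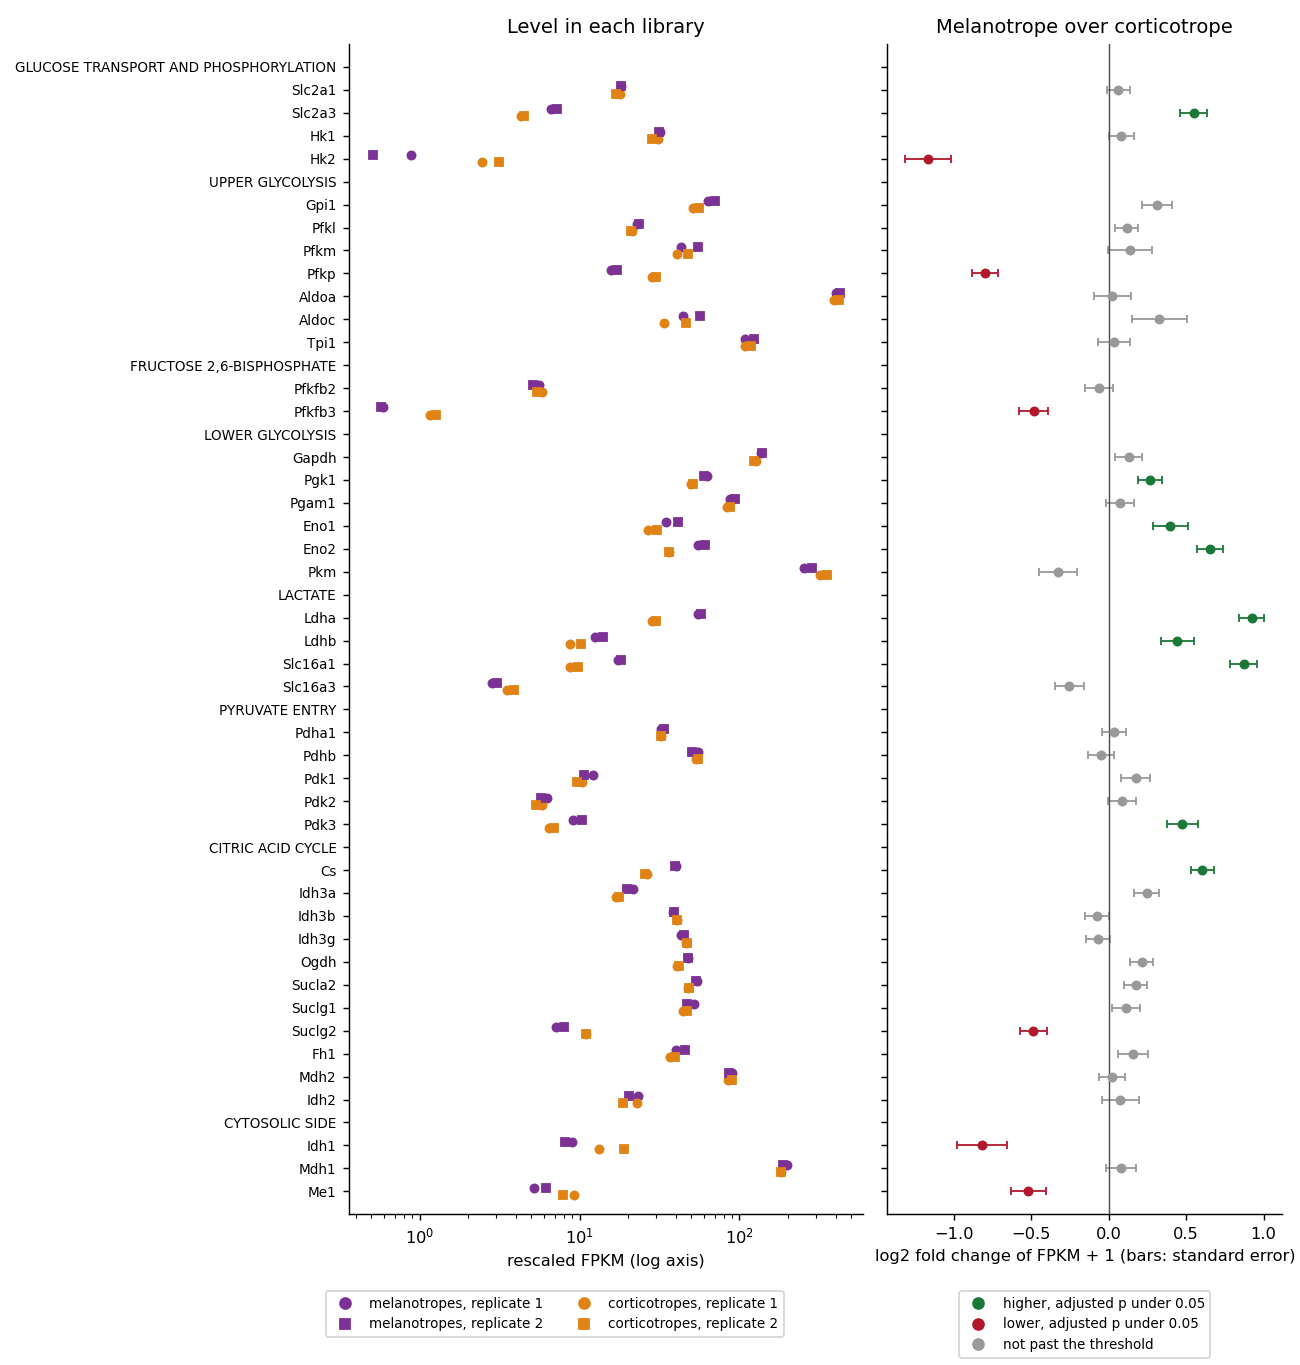
Left, rescaled FPKM of the 42 members in each library (log axis; circles replicate 1, squares replicate 2); right, log2 fold change of FPKM + 1, melanotrope over corticotrope, with its standard error (limma), grouped by step of the pathway. The largest rises are those of Ldha and Slc16a1, at 0.92 and 0.87, and Hk2 has the largest fall, at -1.17.

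The 2 members with the largest rise and the 2 with the largest fall are shown by the sequence before their starts. For Ldha the start of NM_010699 was chosen by hand, and for the others that of the transcript whose levels are given. The 250 bases upstream are given on GRCm38.p6 from RefSeq, with capitals for ACGTG or GCGTG on either strand, the core letters bound by hypoxia-inducible factors; CACGTG, the E-box read by Myc-type and carbohydrate-response factors, holds ACGTG on both strands.
Ldha, upstream of NM_010699, chr7:46845554-46845803, plus strand: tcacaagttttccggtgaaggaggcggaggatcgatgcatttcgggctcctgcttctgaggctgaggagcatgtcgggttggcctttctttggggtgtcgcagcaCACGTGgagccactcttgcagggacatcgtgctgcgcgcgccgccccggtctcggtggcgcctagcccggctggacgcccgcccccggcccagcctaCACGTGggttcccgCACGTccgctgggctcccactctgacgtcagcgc
Slc16a1, chr3:104638414-104638663, plus strand: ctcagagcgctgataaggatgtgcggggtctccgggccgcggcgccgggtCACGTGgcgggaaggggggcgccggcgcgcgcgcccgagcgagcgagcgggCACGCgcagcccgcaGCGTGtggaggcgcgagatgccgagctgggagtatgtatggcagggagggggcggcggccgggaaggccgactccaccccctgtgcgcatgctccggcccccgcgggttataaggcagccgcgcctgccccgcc
Hk2, chr6:82774455-82774704, minus strand: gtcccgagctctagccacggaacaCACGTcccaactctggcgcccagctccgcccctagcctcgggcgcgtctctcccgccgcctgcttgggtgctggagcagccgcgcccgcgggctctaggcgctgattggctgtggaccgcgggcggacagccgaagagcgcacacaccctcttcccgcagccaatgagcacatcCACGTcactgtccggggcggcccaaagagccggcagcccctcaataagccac
Idh1, upstream of NM_001111320, chr1:65186480-65186729, minus strand: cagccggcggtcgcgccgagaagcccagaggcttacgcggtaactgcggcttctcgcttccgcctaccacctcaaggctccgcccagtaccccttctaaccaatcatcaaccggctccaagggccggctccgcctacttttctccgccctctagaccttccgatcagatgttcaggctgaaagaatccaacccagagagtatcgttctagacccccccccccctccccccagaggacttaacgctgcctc
CACGTG occurred 2 times before Ldha and 1 time before Slc16a1, and was not found in the Hk2 or Idh1 window shown. Hk2 held ACGTG 2 times, and neither core was found in the Idh1 window shown. Ldha and Idh1 have a further start each: the window before the Ldha start at 46847082, that of NM_001136069, whose levels are given here, held GCGTG but neither ACGTG nor CACGTG, and the window before the Idh1 start at 65179142 held GCGTG. RefSeq gave 63 promoters for 40 of the members, with none for Slc2a3 or Idh3a. ACGTG or GCGTG stood in 76.2% of them, against 38.6% of all 32851 promoters, and CACGTG in 14.3%, against 6.02%. The members' windows were richer in G and C, with a median of 60.8% against 52.4%. The cores did not go with one direction: they stood in 9 of 11 promoters of members that rose, 6 of 9 of members that fell and 33 of 43 of members that were not called. CACGTG did not either, standing in 2 of 11, 1 of 9 and 6 of 43 of these promoters. Pfkfb3, which fell, held it before 1 of its starts. A match is a description of letters and not evidence of binding.

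At glucose entry the called changes were in the less abundant isoforms. Hk2, the hexokinase most abundant in muscle and tumours, fell. It stood at 0.885 and 0.508 FPKM in melanotropes, against 2.46 and 3.14 FPKM in corticotropes. The log2 fold change was -1.17 (SE 0.15, adjusted p = 0.00207, limma), and both melanotrope libraries lay below both corticotrope libraries. Without either corticotrope library Hk2 was left out by the expression filter, so that call rests on both. Hk1, the housekeeping hexokinase, was far more abundant, with 31.8 and 31.2 FPKM in melanotropes and 31.0 and 28.5 FPKM in corticotropes, and was not called (log2 difference 0.08, 95% interval -0.12 to 0.28). Hk2 thus made up 2.70% and 1.60% of the summed Hk1 and Hk2 level in melanotropes, against 7.34% and 9.92% in corticotropes.

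Among the glucose transporters, Slc2a3, the high-affinity transporter of neurons, rose. Slc2a3 stood at 6.65 and 7.25 FPKM in melanotropes, against 4.33 and 4.53 FPKM in corticotropes (log2 fold change 0.55, SE 0.09, adjusted p = 0.0047, limma), a call lost without rescaling (adjusted p = 0.204). Slc2a1, the widespread transporter, was more abundant in both cell types and was not called, with 18.3 and 18.1 FPKM in melanotropes and 17.8 and 17.0 FPKM in corticotropes. The share of Slc2a3 in the pair was 26.7% and 28.6% in melanotropes, against 19.6% and 21.1% in corticotropes.

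In upper glycolysis 1 of 7 members changed, beside 36.2% of all genes tested. Pfkp, the platelet-type phosphofructokinase, fell to 15.8 and 17.1 FPKM in melanotropes, against 28.3 and 30.2 FPKM in corticotropes (log2 fold change -0.80, SE 0.08, adjusted p = 9.34e-04, limma). Pfkl and Pfkm, the liver and muscle types that form tetramers of the same enzyme, had log2 differences of 0.12 and 0.14 and were not called. Pfkp made up 19.4% and 17.9% of the summed phosphofructokinase level in melanotropes, against 31.3% and 30.5% in corticotropes. Pfkm, the most abundant of the set, held 52.7% and 57.6% in melanotropes and 45.1% and 48.2% in corticotropes.

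The other upper enzymes showed no difference past the threshold. Aldoa, the main aldolase and the most abundant member, was at 400.2 and 424 FPKM in melanotropes and 392 and 419.8 FPKM in corticotropes, with overlapping libraries (95% interval of the log2 difference -0.27 to 0.31). Tpi1, triose phosphate isomerase, also overlapped, at 108 and 123 FPKM in melanotropes and 109 and 117 FPKM in corticotropes. Gpi1, glucose phosphate isomerase, was 24.4% higher on average in melanotropes, at 63.1 and 70.2 FPKM against 51.0 and 56.1 FPKM in corticotropes, and narrowly missed the threshold (adjusted p = 0.0517, limma; 0.0021 to 0.277 over the 14 alternatives). Aldoc, the aldolase of brain and astrocytes, was at 44.1 and 56.6 FPKM in melanotropes and 33.9 and 46.2 FPKM in corticotropes and was not called, but passed with a log2 fold change of 0.54 without corticotrope replicate 2 (adjusted p = 0.0294, limma). Glial and posterior lobe markers were also higher in these melanotrope libraries, and their part was not tested.

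Pfkfb3 and Pfkfb2 encode bifunctional enzymes that make and break the allosteric activator of phosphofructokinase. Pfkfb3, the form with the strongest kinase activity, fell to 0.590 and 0.570 FPKM in melanotropes, against 1.16 and 1.26 FPKM in corticotropes (log2 fold change -0.48, SE 0.10, adjusted p = 0.0109, limma). It lay near the expression filter and lost its call without melanotrope replicate 1 (adjusted p = 0.0628) or 2 (0.0739), and it was not tested without either corticotrope library. In the authors' deposited table all 8 Pfkfb3 transcripts had a log2 fold change of 0.057, opposite in sign, and none was called. Pfkfb2, the heart form, was at 5.58 and 5.13 FPKM in melanotropes and 5.85 and 5.40 FPKM in corticotropes and was not called.

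In lower glycolysis 3 of 6 members rose, beside 18.7% of all genes, and the calls of Eno1 and Pgk1 were lost when single libraries were left out. Eno2, the neuron and endocrine enolase, rose most, with 55.2 and 60.8 FPKM in melanotropes and 36.5 and 36.4 FPKM in corticotropes (log2 fold change 0.65, SE 0.09, adjusted p = 0.00221, limma), a call lost without rescaling (adjusted p = 0.0711). Eno1, the widespread enolase, was at 34.8 and 41.1 FPKM in melanotropes and 26.7 and 30.4 FPKM in corticotropes (log2 fold change 0.40, adjusted p = 0.0375). That call was lost without melanotrope replicate 2 (adjusted p = 0.149), without corticotrope replicate 1 (0.148) and with no expression filter (0.073; range 8.36e-04 to 0.391), and the mouse genome holds a near-identical copy, Eno1b, so that the Eno1 level is uncertain. Eno2 exceeded Eno1 per length in all 4 libraries, with 61.3% and 59.6% of their sum in melanotropes and 57.7% and 54.5% in corticotropes.

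Pgk1, phosphoglycerate kinase, rose slightly, to 62.7 and 59.8 FPKM in melanotropes, against 50.1 and 51.3 FPKM in corticotropes (log2 fold change 0.27, adjusted p = 0.0445, limma). Leaving out any 1 of the 4 libraries ended that call (adjusted p 0.105 without melanotrope replicate 2, 0.173 without corticotrope replicate 2, 0.193 without melanotrope replicate 1 and 0.238 without corticotrope replicate 1). Gapdh, the glyceraldehyde phosphate dehydrogenase often used as a reference gene, was at 136 and 138 FPKM in melanotropes and 126 and 123 FPKM in corticotropes (log2 difference 0.13, 95% interval -0.08 to 0.35). Pgam1, phosphoglycerate mutase, overlapped between cell types and was not called (log2 difference 0.07). Gapdh, Eno2 and Tpi1 lie close together on mouse chromosome 6 (mm10, Eno2 at 124760055 to 124769509, Tpi1 at 124810592 to 124814296 and Gapdh at 125161852 to 125165773), yet of the 3 only Eno2 passed the threshold; differences between neighbours were not tested. Several glycolytic genes have many processed copies in the genome, and the handling of reads shared with copies is not stated in the sources used.

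Pkm, pyruvate kinase, was the second most abundant member and lay lower in melanotropes. It was at 253 and 285 FPKM in melanotropes, against 321 and 354 FPKM in corticotropes, with no overlap. The log2 difference of -0.33 missed the threshold (adjusted p = 0.0852, limma). Among other scalings it passed with the sums of all transcripts other than Pomc made equal (adjusted p = 0.0457) and without rescaling (6.39e-04; alternatives 6.39e-04 to 0.388). In the authors' deposited table NM_001253883, 1 of its 2 transcripts, had a false discovery rate of 0.0498 and the other of 0.0768.

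The pair of Pkm rows differs by a single exon, which allows a closer look at splicing. Mammalian Pkm carries a choice between mutually exclusive exons: the upstream one gives the M1 enzyme of muscle and brain, and the downstream one the M2 enzyme of proliferating and many other tissues. Both rows had the same start, end and length of 2419 bases, and in GENCODE models of the same RefSeq entries each holds its own exon of 167 bases, at 59675029 to 59675195 (NM_001253883) and 59675568 to 59675734 (NM_011099) on chromosome 9. Assuming that the rows share all other exons, their difference is the reads on the upstream exon minus those on the downstream exon. Spread over the exon, that difference was -1.04% and 0.505% of the mean Pkm level in melanotropes, against 13.1% and 16.3% in corticotropes. In implied reads it was -85 and 45 in melanotropes and 980 and 2547 in corticotropes, where an exon at the mean level would hold 7503 to 15596 reads. Reads on the exons were thus near balance in melanotropes and leaned to the upstream exon in both corticotrope libraries. The value does not depend on scaling between libraries, and 2 libraries against 2 cannot go below an exact two-sided permutation p of 0.333. Markers of other pituitary lineages were also higher in the corticotrope libraries, and their part was not tested.

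**Figure D2:**
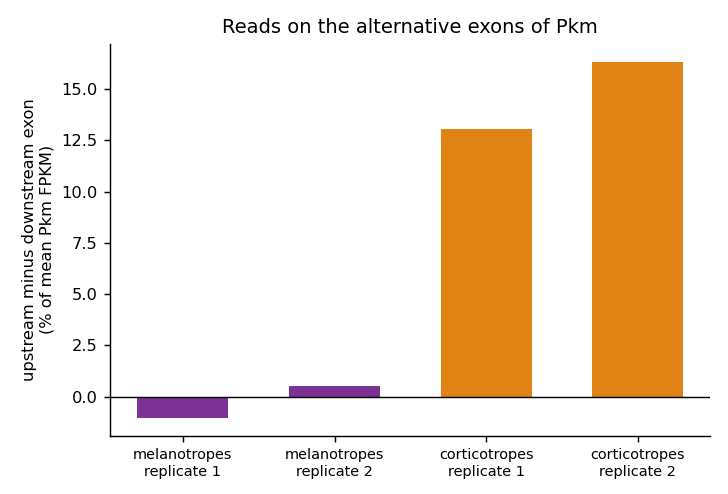
Reads on the upstream minus the downstream alternative exon of Pkm, as percent of the mean Pkm FPKM, in each library (bars start at 0). Both melanotrope libraries lie within 1.04% of balance, and the corticotrope libraries are at 13.1% and 16.3%.

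The lactate step held the largest rises. Ldha, whose enzyme favours making lactate, was at 55.0 and 57.9 FPKM in melanotropes, against 28.4 and 30.2 FPKM in corticotropes, 1.93 times as high on average. The log2 fold change was 0.92 (SE 0.08, adjusted p = 5.11e-04, limma), and it kept its direction and its call under all 14 alternatives, the deposited scale included (log2 fold change 0.44 to 0.98). Ldha was also the only member with more than 1 transcript called in the authors' deposited table, where its 3 transcripts had false discovery rates of 0.00203 to 0.00422. Of the 70 member transcripts there, 4 passed a rate of 0.05, beside 2.28% of all transcripts in the authors' deposited table; 3 were higher, beside 1.18% of all, and 1 was lower, beside 1.1%.

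Ldhb, the heart-type subunit that favours lactate use, rose less, with 12.5 and 14.0 FPKM in melanotropes, against 8.78 and 10.2 FPKM in corticotropes (log2 fold change 0.44, adjusted p = 0.0208, limma). Its call was lost without melanotrope replicate 2 (adjusted p = 0.0886) or corticotrope replicate 1 (0.0623), and on the deposited scale its log2 difference was -0.01 (adjusted p = 0.939; range 8.51e-04 to 0.939). Ldha held 81.5% and 80.5% of the summed Ldha and Ldhb level in melanotropes, against 76.4% and 74.7% in corticotropes, so the A form led in both cell types.

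Slc16a1, the proton-coupled transporter of lactate and pyruvate, rose nearly as much as Ldha. Its levels were 17.4 and 18.1 FPKM in melanotropes, against 8.73 and 9.78 FPKM in corticotropes, 1.92 times as high on average (log2 fold change 0.87, SE 0.09, adjusted p = 8.06e-04, limma). It too was called higher under all 14 alternatives. Slc16a3, the export form of glycolytic cells, did not follow: it stood at 2.85 and 3.06 FPKM in melanotropes and 3.54 and 3.89 FPKM in corticotropes (log2 difference -0.25, adjusted p = 0.0811), and passed as lower without rescaling (adjusted p = 0.00221; alternatives 0.00221 to 0.321). Slc16a3 made up 14.1% and 14.5% of the pair in melanotropes, against 28.8% and 28.5% in corticotropes.

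The transporters' partners went the opposite way to Slc16a1. Bsg, basigin, the glycoprotein that carries Slc16a1 and Slc16a3 to the membrane, fell to 258 and 278 FPKM in melanotropes, against 404 and 471 FPKM in corticotropes (log2 fold change -0.70, adjusted p = 0.00834, limma). Emb, embigin, a related partner, fell to 11.1 and 9.80 FPKM in melanotropes, against 16.1 and 16.8 FPKM in corticotropes (log2 fold change -0.61, adjusted p = 0.00364). Slc16a7, another monocarboxylate transporter, was lower as well (log2 fold change -0.41, adjusted p = 0.0275), and so was Ldhd, the dehydrogenase of D-lactate (-0.32, adjusted p = 0.0227). Growth hormone, prolactin and the other lineage markers were lower in the same direction as Bsg and Emb, and their part was not tested.

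**Figure D3:**
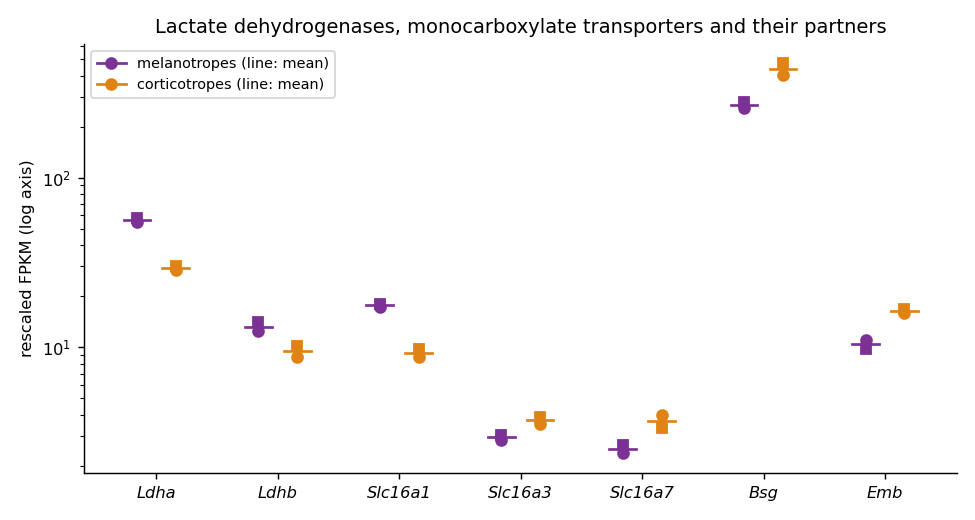
Rescaled FPKM (log axis) of the lactate dehydrogenases, monocarboxylate transporters and the partners Bsg and Emb in each library, with lines at the means of 2 libraries. Ldha, Ldhb and Slc16a1 lie higher in melanotropes, and Slc16a3, Slc16a7, Bsg and Emb lie lower.

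Between pyruvate and the cycle, 1 of 5 matched members changed, beside 36.2% of all genes tested. Pdk3, one of the kinases that switch pyruvate dehydrogenase off, rose to 9.04 and 10.4 FPKM in melanotropes, against 6.44 and 6.96 FPKM in corticotropes (log2 fold change 0.48, adjusted p = 0.0125, limma). Its call was lost without melanotrope replicate 2 (adjusted p = 0.0646) and without rescaling (0.69; alternatives 8.18e-04 to 0.69). Pdk1 and Pdk2, kinases of the same family, had log2 differences of 0.17 and 0.09 and were not called. The share of Pdk3 in the summed kinase level was 33.0% and 38.9% in melanotropes, against 28.5% and 31.8% in corticotropes. Pdha1 and Pdhb, the subunits of the dehydrogenase itself, overlapped between cell types, with 95% intervals of the log2 difference of -0.15 to 0.22 and -0.26 to 0.15. Pcx, which carboxylates pyruvate to oxaloacetate, was at 9.43 and 10.1 FPKM in melanotropes and 8.61 and 8.86 FPKM in corticotropes and was not called (log2 difference 0.14, adjusted p = 0.224).

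In the citric acid cycle 1 of 11 members rose and 1 fell, beside 18.7% and 17.5% of all genes tested. Cs, citrate synthase, which opens the cycle, rose to 40.2 and 39.7 FPKM in melanotropes, against 26.2 and 25.6 FPKM in corticotropes (log2 fold change 0.60, SE 0.07, adjusted p = 0.00183, limma). The libraries of each cell type lay close together, and of the 14 alternatives only the one without rescaling ended the call (log2 difference 0.13, adjusted p = 0.223), the others staying at 0.00668 or below. Suclg2, the GTP-specific subunit of succinyl-CoA ligase, fell to 7.15 and 7.94 FPKM in melanotropes, against 11.0 and 10.9 FPKM in corticotropes (log2 fold change -0.49, SE 0.09, adjusted p = 0.00702). Sucla2, its ATP-specific counterpart, was at 54.4 and 53.9 FPKM in melanotropes and 47.6 and 48.2 FPKM in corticotropes and was not called (adjusted p = 0.131). The shared subunit Suclg1 overlapped. Suclg2 thus made up 6.30% and 7.30% of the summed level of the 3 subunits in melanotropes, against 10.7% and 10.3% in corticotropes.

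The other cycle enzymes differed by little. Idh3a, the catalytic subunit of the NAD-dependent isocitrate dehydrogenase, was at 21.5 and 19.8 FPKM in melanotropes and 17.0 and 17.5 FPKM in corticotropes (log2 difference 0.25, adjusted p = 0.0609). Its partner subunits Idh3b and Idh3g had log2 differences of -0.08 and -0.07, and Idh3a held 20.9% and 19.1% of the 3-subunit sum in melanotropes, against 16.4% and 16.7% in corticotropes. Ogdh, the oxoglutarate dehydrogenase, was at 48.0 and 47.9 FPKM in melanotropes and 41.0 and 41.6 FPKM in corticotropes and missed the threshold (adjusted p = 0.0763), but passed it with equal sums of transcripts other than Pomc (0.0392; alternatives 0.014 to 0.326). Fh1, fumarase, Mdh2, mitochondrial malate dehydrogenase, and Idh2, the mitochondrial NADP-dependent isocitrate dehydrogenase, had log2 differences of 0.16, 0.02 and 0.07. For Mdh2 the 95% interval ran from -0.19 to 0.23.

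On the cytosolic side 2 of 3 members fell, beside 17.5% of all genes tested. These were Idh1 and Me1, which both make NADPH. Idh1, the cytosolic isocitrate dehydrogenase, was at 9.01 and 8.11 FPKM in melanotropes, against 13.2 and 18.9 FPKM in corticotropes (log2 fold change -0.82, SE 0.16, adjusted p = 0.0111, limma). The corticotrope libraries differed from each other more than the melanotrope ones, and all 4 fits that left out a library kept Idh1 lower (log2 fold change -1.06 to -0.58). Me1, cytosolic malic enzyme, was at 5.21 and 6.15 FPKM in melanotropes, against 9.21 and 7.91 FPKM in corticotropes (log2 fold change -0.52, SE 0.11, adjusted p = 0.0155), a call lost without melanotrope replicate 1 (adjusted p = 0.0623). Mdh1, the cytosolic malate dehydrogenase and the third most abundant member in both cell types, was not called (log2 difference 0.08). Idh1 made up 28.0% and 28.5% of the Idh1 and Idh2 sum in melanotropes, against 36.8% and 50.2% in corticotropes.

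**Figure D4:**
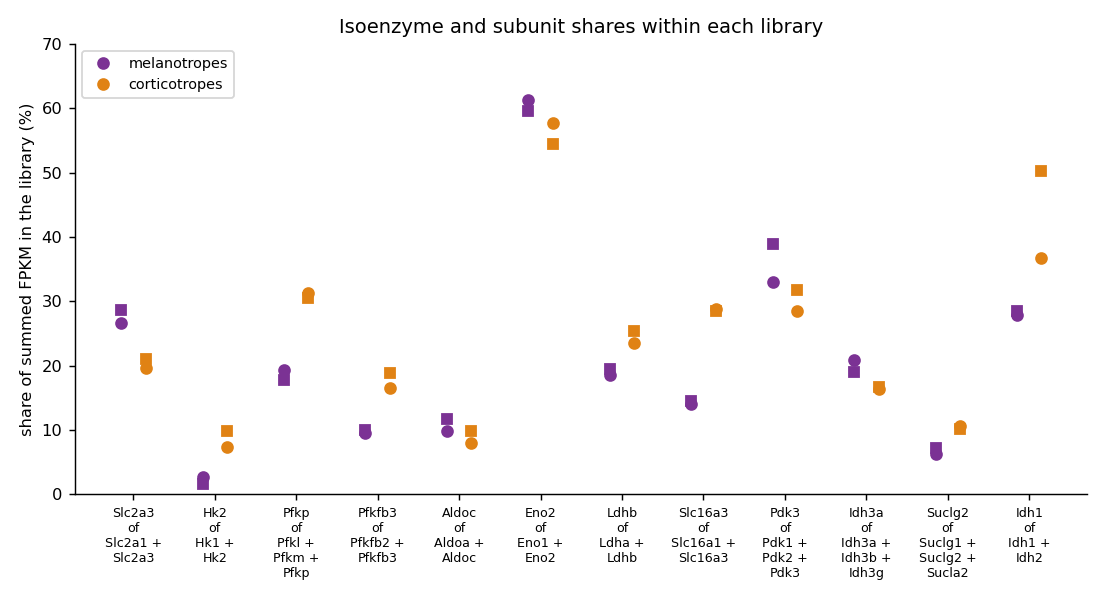
Share of one form in the summed FPKM of its isoenzyme or subunit set, in percent, within each library (circles replicate 1, squares replicate 2). The sets are named on the axis; Pfkp lies at 17.9% and 19.4% in melanotropes and 30.5% and 31.3% in corticotropes, and Slc16a3 at 14.1% and 14.5% against 28.5% and 28.8%.

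Shares like these do not depend on how libraries are scaled. They were computed for 14 isoenzyme or subunit sets, with no test, since 2 libraries against 2 allow no exact two-sided p below 0.333. Transcripts of the same gene gave much the same fold change: among the 13 members with several transcripts the log2 differences spanned at most 0.12, in Pfkfb2.

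Further genes of the same pathways were counted from a list of 77, of which 58 could be tested. Of these 8 rose and 12 fell, or 34.5%, near the 36.2% of all genes (18.7% higher and 17.5% lower), with a median log2 fold change of 0.02. Without melanotrope replicate 2, 2 rose, without melanotrope replicate 1, 3 rose and 5 fell, and without corticotrope replicate 1 or 2 the numbers that fell were 6 and 7 and those that rose 5 and 6. Those that bear on the members by kind are the other isoenzymes. Hkdc1, a hexokinase-like gene, rose to 1.67 and 1.35 FPKM in melanotropes, against 0.213 and 0.200 FPKM in corticotropes (log2 fold change 1.05, adjusted p = 8.87e-04, limma), and it passed the expression filter only through its melanotrope libraries. Eno3, the muscle enolase, fell to 11.2 and 11.2 FPKM in melanotropes, against 27.1 and 24.1 FPKM in corticotropes (log2 fold change -1.13, adjusted p = 3.21e-04), opposite to Eno2. Pfkfb4, a relative of Pfkfb3, fell to 16.7 and 17.5 FPKM in melanotropes, against 31.0 and 28.3 FPKM in corticotropes (log2 fold change -0.76, adjusted p = 0.0012).

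Outside the core steps, Acly, ATP citrate lyase, which cuts exported citrate into acetyl-CoA for lipid synthesis, rose to 68.2 and 73.6 FPKM in melanotropes, against 38.5 and 40.3 FPKM in corticotropes (log2 fold change 0.83, adjusted p = 8.49e-04, limma). Cs makes the citrate that this enzyme cuts. Ugp2, which makes UDP-glucose, had the largest fall of the list, at 11.8 and 11.9 FPKM in melanotropes, against 32.2 and 31.5 FPKM in corticotropes (log2 fold change -1.35, adjusted p = 1.02e-04). The liver-type glycogen phosphorylase Pygl rose (log2 fold change 0.86, adjusted p = 0.00106). Slc2a4, the insulin-responsive glucose transporter, fell to 0.147 and 0.186 FPKM in melanotropes, against 1.18 and 2.09 FPKM in corticotropes (log2 fold change -1.15, adjusted p = 0.00394), and it passed the filter only through its corticotrope libraries. In the pentose phosphate pathway 2 of 8 genes fell and 0 rose, beside 17.5% and 18.7% of all genes tested. None of the 8 was higher at an unadjusted p under 0.05 (limma). By sign, 5 had a positive and 3 a negative log2 fold change, with a median of 0.05. G6pdx, which makes NADPH from glucose phosphate, had a log2 fold change of -0.40 (adjusted p = 0.025) and Rpe one of -0.33 (adjusted p = 0.0265).

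Oxygen and energy regulators (26 tested) and hypoxia-responsive genes outside glycolysis (13 tested) were counted in the same fit. Of these 39, 7 rose and 14 fell, or 53.8% beside 36.2% of all genes (18.7% higher and 17.5% lower), with a median log2 fold change of -0.09. Without melanotrope replicate 2, 2 rose, without melanotrope replicate 1, 3 rose, and without corticotrope replicate 1 or 2, 9 fell in each case. The hypoxia-inducible factor subunits Hif1a, Epas1 and Hif3a fell, with log2 fold changes of -0.43, -0.46 and -1.21 (adjusted p = 0.0107, 0.013 and 0.001, limma), Hif3a having passed the filter only through its corticotrope libraries. Egln1, a prolyl hydroxylase that marks these factors for breakdown, rose (log2 fold change 0.50, adjusted p = 0.00648). Arnt and Arnt2, the partner subunits of Hif1a, Epas1 and Hif3a, had log2 differences of -0.15 and 0.15 and were not called. The hypoxia-responsive genes were split, with 3 of 13 higher and 4 lower: Adm, adrenomedullin, rose (log2 fold change 1.64, adjusted p = 2.81e-04), and Ndrg1, Bnip3, Ddit4 and Bhlhe40 fell (log2 fold change -1.64 to -1.02). Adm passed the filter only through its melanotrope libraries and Ndrg1 only through its corticotrope libraries. Txnip, an inhibitor of glucose uptake that glucose induces, fell to 120 and 109 FPKM in melanotropes, against 191 and 219 FPKM in corticotropes (log2 fold change -0.83, adjusted p = 0.00267).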

How the data were processed

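The authors deposited FPKM for each RefSeq transcript, computed by HOMER analyzeRepeats over exons of mm10, per the file headers. TopHat is also named in the submitters' processing notes; tool versions and strand use are not stated in the sources used. The deposited log2 fold change and false discovery rate (adjusted p-value) columns came from getDiffExpression run on the FPKM, per the file headers, and are named wherever used. The 4 deposited columns have nearly equal sums (729482 to 729485). Columns were divided by unweighted TMM factors (30% of M and 5% of A trimmed), 0.882 and 0.807 for melanotropes and 1.22 and 1.15 for corticotropes. The longest transcript stood for each gene. Genes with at least 1 rescaled FPKM in at least 2 libraries were fitted with limma 3.58.1 in R 4.3.3 (log2(FPKM + 1), trend, two-sided, Benjamini-Hochberg, threshold 0.05), with 2 residual and 4.02 prior degrees of freedom.

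Read counts were implied from the spacing of low values, which were whole multiples within 0.1 for 99.7% to 100% of those used, and gave 97626402 to 187277615 reads per library over the longest transcripts; FPKM were deposited to hundredths. The fit was tested on simulated data of 13043 genes for this comparison. Of 100 genes changed by a log2 of 1 and 100 changed by 2, 100% were recovered, with 9 false calls. The simulated noise was independent between libraries, whereas deviations of same-numbered real libraries correlated at 0.526. Changed genes were drawn only from those with a mean log2(FPKM + 1) above 2. Among the members only Hk2 reached a log2 fold change of 1, and its mean lay below that level. The recovery therefore covers neither Hk2 nor the smaller member changes, and the false calls do not carry over to the real libraries. Members and lists were chosen with earlier results of these data known. Every member may be named; of the other lists, up to 6 genes per direction with the smallest adjusted p, and isoenzymes or partners of members. Hif1a, Epas1, Arnt, Arnt2, Bhlhe40, G6pdx and Rpe, Pcx and the Pkm exons fall outside that rule and were chosen after values were seen. Coordinates are those of mm10, counted from 1.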

Additional observations from a re-analysis of the deposited data

How the results depend on the processing

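Over 14 alternatives Ldha, Slc16a1, Pfkp, Suclg2 and Idh1 kept their direction and call, as did Hk2 in the 12 that tested it. Rescaling mattered most. On the deposited scale, 939 of all genes rose and 8787 fell, 2 and 28 of the members, 3 and 42 of the other pathway genes, and 1 and 28 of the regulators. There the log2 difference turned negative for 24 members: Slc2a1 (-0.40), Hk1 (-0.39), Gpi1 (-0.17), Pfkl (-0.35), Pfkm (-0.35), Aldoa (-0.47), Aldoc (-0.15), Tpi1 (-0.45), Gapdh (-0.36), Pgk1 (-0.22), Pgam1 (-0.41), Eno1 (-0.080), Ldhb (-0.0077), Pdha1 (-0.44), Pdk1 (-0.27), Pdk2 (-0.33), Idh3a (-0.22), Ogdh (-0.27), Sucla2 (-0.31), Suclg1 (-0.37), Fh1 (-0.32), Mdh2 (-0.46), Idh2 (-0.39) and Mdh1 (-0.41). On that scale the median log2 fold change of all genes was -0.42. Of these 24, Pgk1, Eno1 and Ldhb were called higher after rescaling. Pdhb turned to 0.0021 with equal sums of transcripts other than Pomc.

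Leaving out 1 library at a time gave 1389 to 2058 genes higher and 1563 to 1779 lower, 5 to 9 members higher and 4 to 5 lower, 2 to 6 other pathway genes higher and 5 to 8 lower, and 2 to 6 regulators higher and 9 to 11 lower. Members not called whose sign turned ranged over -0.040 to 0.31 (Pfkm), -0.027 to 0.071 (Aldoa), -0.058 to 0.13 (Tpi1), -0.00061 to 0.067 (Pdha1), -0.11 to 0.0059 (Pdhb), -0.017 to 0.060 (Mdh2) and -0.060 to 0.21 (Idh2). With no expression filter 4 regulators rose. Replicate number as a block gave 14 members higher and 8 lower, adding Gpi1, Aldoc (adjusted p = 0.00214, limma), Idh3a, Ogdh (0.014) and Sucla2 as higher and Pkm (9.62e-04) and Slc16a3 as lower; the labels give the shared numbers no meaning, and same-numbered libraries' deviations from the group means correlated at 0.526 across genes, which are not independent replicates.

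With each gene's most abundant transcript the shares, melanotropes first, were 28.6% for Idh1 and 71.4% for Idh2 in melanotropes, 82.7% and 77.6% for Ldha, 17.3% and 22.4% for Ldhb, 94.1% and 88.5% for Pfkfb2, 5.87% and 11.5% for Pfkfb3, 85.3% and 70.9% for Slc16a1, 14.7% and 29.1% for Slc16a3, and 32.0% for Pfkp in corticotropes.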
